A study of Rattus norvegicus with 12 samples.

Results

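Splicing factor and RNA-binding protein genes of the rat hippocampus were examined across 2 groups of 6 samples labelled NC and AS3h. They were chosen by symbol, by a rule that uses no measured value but was set with earlier results of these data known: the serine/arginine-rich (SR) factors Srsf, the RNA-binding motif genes Rbm other than Rbm3, the pre-mRNA processing factors Prpf, the heterogeneous nuclear ribonucleoproteins Hnrnp, the SF3A and SF3B subunits, and 15 listed regulators such as Sfpq, Nono and Mbnl1. This gave 105 of the 23760 rows of the expression files, for 103 symbols, since Hnrnpa3 and Rbm12 each had a pair of rows. All 105 passed the filter on low values.

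The hippocampus is the part of the temporal lobe on which new spatial memories depend. The series as a whole is about loss of cognitive function when animals work under water for long periods. Both groups were rat (Rattus norvegicus) hippocampal RNA. The labels expand neither abbreviation and give no strain, sex, age, genotype, treatment or time for either group, nor do they say whether each sample came from its own animal. The p-values therefore measure the spread between these samples.

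Introns are removed from pre-mRNA by the spliceosome, a machine of small nuclear ribonucleoproteins that is assembled afresh on each intron: the U2 particle, which contains SF3A and SF3B, marks the branch point, and Prpf proteins help to join and activate the particles that follow. SR proteins mostly favour the use of the exons they bind, while many hnRNPs counteract them. Members of the Celf, Mbnl, Nova and Rbm families set tissue-specific exon choices, many of them in neurons, and the paraspeckle proteins Sfpq, Nono and Pspc1 act in transcription as well as in splicing.

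Reads assigned to genes ranged from 29.6 M to 38.1 M per library, which put 3 reads at 0.0787 to 0.101 CPM (counts per M reads). The 105 rows held 1.06% to 1.11% of the reads of each NC library and 1.01% to 1.09% of each AS3h library. All 12 hippocampal neuron markers listed were detected in every library. Choroid plexus markers, from tissue that lies beside the hippocampus, had summed normalised read counts of 200.2 to 1227 in NC and 326 to 69115 in AS3h, with AS3h 5 highest and AS3h 4 next to it by mean log2 level. Their mean log2 level was 4.68 ± 0.89 in NC and 6.49 ± 2.60 in AS3h (SD over 6 libraries; exact permutation p, two-sided, of 0.132). That of blood markers was 8.94 ± 0.48 and 9.78 ± 0.67 (exact permutation p = 0.0411), with all 6 blood rows tested and all 7 choroid plexus rows tested higher in AS3h and none past the threshold. Summed blood counts ran from 9618 to 23389 in NC and from 12472 to 39341 in AS3h. The choroid plexus regulator Otx2 was at 0 in 7 libraries. Summed microglial, astrocyte and endothelial markers were lower in AS3h (exact permutation p = 0.0238, 0.0455 and 0.0455). All 4 microglial rows had negative log2 fold changes, and Cx3cr1 alone of them passed in limma (-0.55, adjusted p = 0.00883). The endothelial rows disagreed in sign. Flt1, with most of the counts, had a log2 fold change of -0.27 and passed (adjusted p = 0.0378). Cdh5 was at 0.27 and did not pass (adjusted p = 0.27), while Cldn5 was at 0 in 6 libraries. Summed interneuron and oligodendrocyte markers had exact permutation p-values of 0.752 and 0.29. The summed count of nuclear retained RNAs, 2 of the 6 listed and nearly all of it Snhg11, was 11603 ± 662 in NC and 10268 ± 615 in AS3h (SD, n = 6 each; exact permutation p = 0.00433). The summed neuron markers were higher (exact permutation p = 0.0249), but 6 of the 12 had positive and 6 negative log2 fold changes (median -0.00498). Slc17a7, Snap25 and Syt1, the rows with the highest counts, were at 0.27, 0.17 and 0.13, and Zbtb20, C1ql2 and Wfs1 at -1.12, -0.36 and -0.25. Of the 12 neuron markers Slc17a7 alone passed. The part of these differences in the results on splicing genes was not tested.

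Splicing and RNA-binding genes changed in both directions: Rbm22, Hnrnpab, Sf3b4 and Srsf3 were among those higher in AS3h, and Rbm5, Sfpq, Hnrnpu, Prpf4b, Rbm20 and Hnrnph1 among those lower. Of the 105, 8 were higher and 11 lower in AS3h (limma across all genes, Benjamini-Hochberg adjusted p under 0.05), or 18.1%, against 9.26% of all 19050 genes tested. By direction these were 7.62% higher and 10.5% lower, against 5.04% and 4.22% of all genes. A larger share was called among genes with more reads: of those with a mean normalised count of at least 1000, 16 of 73 splicing genes (21.9%) and 14.0% of all 6069 passed. Of those 73, 9.59% were higher and 12.3% lower, against 8.19% and 5.77% of the 6069. The median log2 fold change over the 105 was -0.00796, with 51 positive and 54 negative, and over all genes -0.00428. In 8 of the 105 (7.62%) the 6 AS3h libraries did not overlap the 6 NC libraries, against 5.05% of all genes; at a mean of at least 1000 it was 11.0% of the splicing genes against 7.84%. Among the 19 the absolute log2 fold change had a median of 0.27, and Rbm20 alone reached a 2-fold difference. An unadjusted p under 0.05 was found for 41 of the 105 (39.0%) and for 24.9% of all genes. In bulk RNA, fewer cells of a type and less RNA per cell cannot be told apart.

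**Figure D1:**
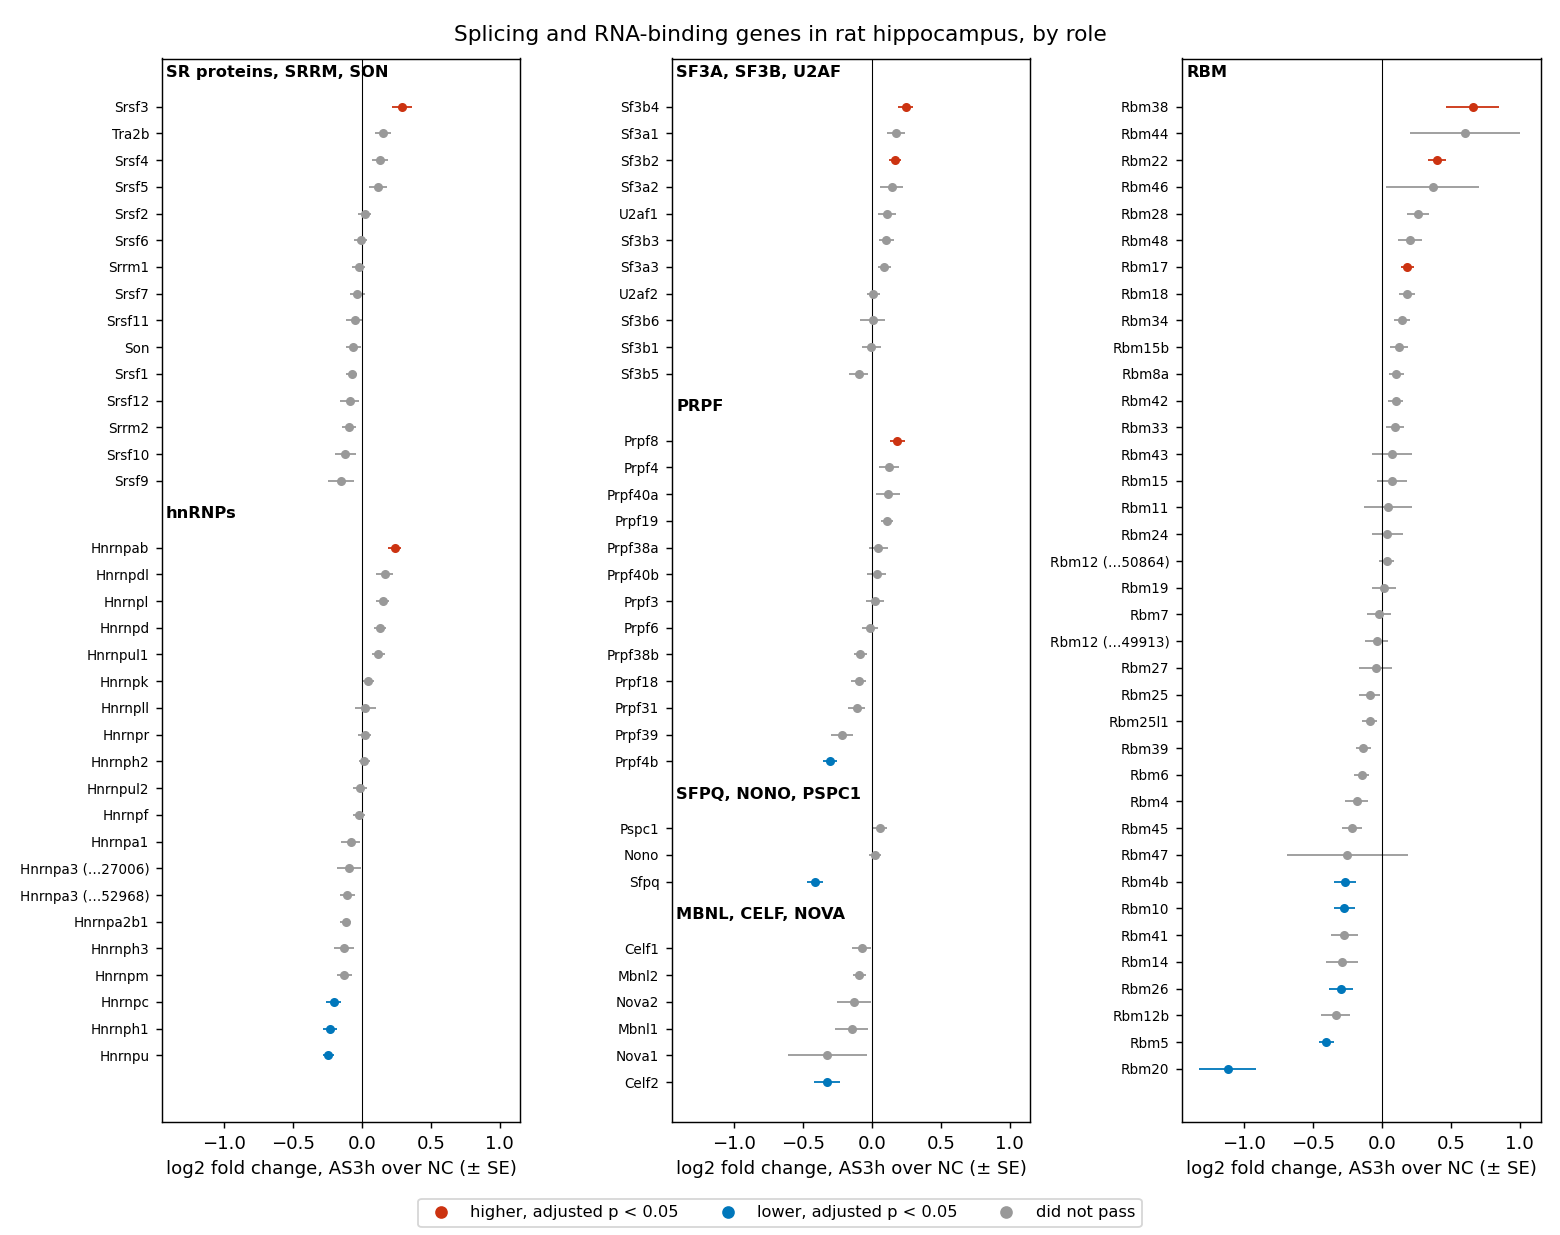
Each point gives log2FC (AS3h over NC) for a splicing or RNA-binding gene row, grouped by role, with its standard error from limma (n = 6 per group). Red and blue mark the 8 rows higher and 11 lower at an adjusted p under 0.05, and grey the 86 that did not pass. The rows lie on both sides of 0, and Rbm20 lies farthest from it.

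Promoters are shown for 4 of the genes that passed whichever library was left out, Sfpq, Rbm5 and Hnrnpu (lower) and Srsf3 (higher), to set genes that moved in opposite directions side by side. The windows run from 250 bases before to 50 after the RefSeq gene start on assembly GRCr8, 5′ to 3′ on the gene's strand: Sfpq at chr5:144622283-144622582 (+), Rbm5 at chr8:117327657-117327956 (-), Hnrnpu at chr13:92618531-92618830 (-) and Srsf3 at chr20:7093335-7093634 (+). Capitals mark the CCAAT box on either strand (CCAAT or ATTGG) and the E-box CACGTG.
Sfpq: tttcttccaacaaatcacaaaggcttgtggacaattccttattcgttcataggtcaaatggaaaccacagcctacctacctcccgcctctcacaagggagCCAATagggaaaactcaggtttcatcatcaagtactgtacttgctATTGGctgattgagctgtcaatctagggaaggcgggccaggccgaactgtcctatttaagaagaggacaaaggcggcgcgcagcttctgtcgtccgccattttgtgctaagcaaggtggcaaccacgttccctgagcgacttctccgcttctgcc
Rbm5: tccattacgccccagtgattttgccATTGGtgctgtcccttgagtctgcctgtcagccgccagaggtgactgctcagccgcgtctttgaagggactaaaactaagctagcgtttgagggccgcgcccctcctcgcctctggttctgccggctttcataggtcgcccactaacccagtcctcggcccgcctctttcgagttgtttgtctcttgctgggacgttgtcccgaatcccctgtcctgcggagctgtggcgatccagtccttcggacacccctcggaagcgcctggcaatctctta
Hnrnpu: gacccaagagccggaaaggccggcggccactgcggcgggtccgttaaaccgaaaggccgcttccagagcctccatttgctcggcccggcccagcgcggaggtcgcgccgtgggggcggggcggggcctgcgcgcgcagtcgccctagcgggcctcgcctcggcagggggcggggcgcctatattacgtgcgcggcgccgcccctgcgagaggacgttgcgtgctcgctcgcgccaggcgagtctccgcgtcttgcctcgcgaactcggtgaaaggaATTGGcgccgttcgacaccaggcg
Srsf3: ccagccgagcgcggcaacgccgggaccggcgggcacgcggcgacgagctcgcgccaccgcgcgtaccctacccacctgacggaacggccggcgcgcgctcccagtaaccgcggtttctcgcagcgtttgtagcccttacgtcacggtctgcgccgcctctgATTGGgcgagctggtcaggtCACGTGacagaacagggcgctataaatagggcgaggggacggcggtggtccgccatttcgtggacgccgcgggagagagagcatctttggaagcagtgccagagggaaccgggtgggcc

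A CCAAT box, on either strand, occurred in 49 of the 92 splicing gene symbols with a window (53.3%), in 9 of the 16 called ones (56.2%) and in 37.7% of all 27457 RefSeq windows, which include genes not tested here. It was in 6 of 9 windows of genes that fell and 3 of 7 of those that rose. The GC box GGGCGG occurred in 56.5% of the 92 and 34.9% of all, and the E-box CACGTG in 13% and 6.65%, with Srsf3 the 1 called gene that had it. The cyclic AMP response element TGACGTCA was in 2.17% of the 92 and 1.91% of all, and in none of the 16. All were searched on both strands, none contains another, and a match describes the letters alone. Of the tested symbols, 11688 of 18384 had a window, under the 80% needed for a comparison. There the CCAAT box was in 37.1%, the GC box in 59%, the E-box in 8.86% and the cyclic AMP response element in 2.87%. The GC box share of the 92 thus lay above that of all RefSeq windows and below that of tested genes. No enrichment in splicing genes is read from these shares.

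Below, 3 values given for a group are its lowest, median and highest normalised read count over 6 libraries, and log2FC is the difference AS3h minus NC on the log2(value + 1) scale, ± its standard error. Levels of different genes are not compared, because the counts are not per unit of length.

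Of the 11 rows for SF3 and U2AF proteins, which recognise the branch point and the 3′ splice site, 2 were higher and 0 lower. Of their log2FC values 9 were above 0, with a median of 0.10. Over all 19050 genes tested 5.04% were higher and 4.22% lower, with 9367 positive and 9683 negative log2FC values. These values of all genes apply to each class below, and the classes are too small for a shift of a class to be read. Sf3b4 stood at 901, 961 and 1045 in NC and at 1105, 1132 and 1193 in AS3h. Sf3b4, an SF3B subunit that contacts pre-mRNA near the branch site, had every AS3h library above every NC library and rose (log2FC 0.25 ± 0.054, adjusted p = 0.0106). Sf3b2 stood at 4958, 5194 and 5588 in NC and at 5498, 5966 and 6145 in AS3h, and 5 AS3h libraries exceeded all of NC. This SF3B subunit, the binding partner of Sf3b4, rose (log2FC 0.17 ± 0.045, adjusted p = 0.0281), but passed in 4 of the 12 fits that left out 1 library, those without NC 1, NC 5, AS3h 2 and AS3h 3, with an adjusted p of up to 0.0679 in the others. Its locus overlaps that of Gal3st3, which had a positive log2FC too and did not pass (0.24 ± 0.082, adjusted p = 0.074). How shared reads were counted is not stated. Sf3b1 stood at 13409, 13658 and 13971 in NC and at 11651, 13454 and 16265 in AS3h. Sf3b1, the large scaffold that holds the branch point adenosine, spread more widely in AS3h than in NC and did not pass (log2FC -0.00484 ± 0.068, adjusted p = 0.978, 95% interval -0.15 to 0.14).

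The Prpf genes split, with 1 of 13 higher, 1 lower and a median log2FC of 0.02. Prpf4b stood at 4503, 4620.3 and 4893 in NC and at 3402, 3706 and 4340.4 in AS3h, so that no libraries overlapped. Prpf4b, a protein kinase that phosphorylates spliceosomal proteins during assembly, fell (log2FC -0.30 ± 0.054, adjusted p = 0.00321). Prpf8 stood at 8636, 9189 and 10534 in NC and at 10051, 10685 and 11510.2 in AS3h, with 4 AS3h libraries above all of NC. Prpf8, the protein at the catalytic centre of the spliceosome, rose (log2FC 0.18 ± 0.054, adjusted p = 0.0443), but passed in 3 of the 12 fits that left out 1 library, those without NC 1, NC 5 and AS3h 2, with an adjusted p of up to 0.0963 in the others. The log2FC of the other 11 lay between -0.22 and 0.13.

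Of the 15 SR, SRRM and SON rows, 1 was higher and 0 lower (median log2FC -0.03). Srsf3 stood at 4063, 4268 and 4838 in NC and at 4821, 4978 and 6601 in AS3h. NC 4 lay just above the lowest AS3h library, and the other 5 AS3h libraries lay above all of NC. Srsf3, the smallest SR protein and also an adaptor for mRNA export, rose (log2FC 0.29 ± 0.073, adjusted p = 0.0233). Tra2b stood at 2837, 3152 and 3452 in NC and at 3201, 3525 and 3700.4 in AS3h. Tra2b, an SR-like activator of exons rich in GAA repeats, did not pass (log2FC 0.16 ± 0.058, adjusted p = 0.109). Srrm2 stood at 20491, 22181 and 23979 in NC and at 20168, 20756 and 21959 in AS3h. The groups overlapped for Srrm2, a large scaffold of nuclear speckles (log2FC -0.09 ± 0.048, adjusted p = 0.252).

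The hnRNPs held 3 of the 8 rows without overlap, with 1 of 20 higher, 3 lower and a median log2FC of -0.02. Hnrnpu stood at 18879, 19448 and 20561 in NC and at 15874, 16406 and 17474 in AS3h. Hnrnpu, an abundant nuclear matrix protein that binds both chromatin and RNA, fell (log2FC -0.24 ± 0.041, adjusted p = 0.00237), with means of 19617 ± 591 in NC and 16581 ± 693 in AS3h (SD, n = 6 each). No libraries overlapped. Hnrnph1 stood at 8104, 8824 and 9119 in NC and at 6614, 7602 and 8021 in AS3h, again without overlap. Hnrnph1, which binds runs of guanines, fell (log2FC -0.23 ± 0.051, adjusted p = 0.0124). Hnrnpab stood at 2487, 2674 and 2789 in NC and at 2974, 3088 and 3286 in AS3h, and here every AS3h library was higher. Hnrnpab, which in neurons also takes part in carrying mRNAs into dendrites, rose (log2FC 0.24 ± 0.045, adjusted p = 0.00458). Its locus overlaps Phykpl on the opposite strand, which did not pass (adjusted p = 0.633). Hnrnpc stood at 2911, 3357 and 3428 in NC and at 2656, 2767 and 3098 in AS3h. In Hnrnpc, which binds uridine tracts of nascent RNA, 4 AS3h libraries lay below all of NC; it fell (log2FC -0.20 ± 0.055, adjusted p = 0.0316) and passed in 4 of the 12 fits that left out 1 library, those without NC 1, NC 5, AS3h 1 and AS3h 2, with an adjusted p of up to 0.077 in the others. The 16 that did not pass ranged from -0.13 to 0.17 in log2FC.

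Of the 3 paraspeckle genes, Sfpq fell and its partners did not pass. Sfpq stood at 3999, 4564 and 4794 in NC and at 2984, 3385 and 3745 in AS3h, so every AS3h library lay below every NC library. Sfpq, a transcription and splicing factor known to be needed for the expression of long neuronal genes, fell from a mean of 4510.0 ± 297 to 3387 ± 247 (SD, n = 6 each; log2FC -0.41 ± 0.059, adjusted p = 0.000726). Its promoter window was the 1 of the 4 printed that holds a pair of CCAAT boxes. Nono stood at 4501, 4607 and 4853 in NC and at 4452, 4686 and 5069 in AS3h, overlapping throughout. Nono, which pairs with Sfpq as a dimer, had a log2FC of 0.02 ± 0.042 (95% interval -0.07 to 0.11, adjusted p = 0.794). Pspc1 stood at 1682, 1783 and 1874 in NC and at 1768, 1826 and 2093 in AS3h. Pspc1, the remaining dimer partner, also overlapped (log2FC 0.06 ± 0.051, adjusted p = 0.502, 95% interval -0.05 to 0.17).

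All 6 Mbnl, Celf and Nova rows had negative values (median log2FC -0.14), as did 9683 of all 19050 genes tested. Of the 6, 1 was called. Celf2 stood at 2076, 2601 and 3127 in NC and at 1772, 2026 and 2397 in AS3h, with 3 AS3h libraries below all of NC. Celf2, a regulator of exon choice in brain and muscle that binds UG-rich RNA, fell (log2FC -0.33 ± 0.093, adjusted p = 0.0401) and passed in 3 of the 12 fits that left out 1 library, those without NC 6, AS3h 1 and AS3h 3, with an adjusted p of up to 0.0861 in the others. Mbnl2 stood at 7506, 7621 and 8413 in NC and at 6849, 7189.99 and 7842 in AS3h. Mbnl2, a muscleblind regulator of exon choice in the brain, did not pass (log2FC -0.09 ± 0.044, adjusted p = 0.219). The others, Mbnl1, Celf1, Nova1 and Nova2, had log2FC values from -0.32 to -0.07. The shared sign did not hold under every setting: with both covariates Mbnl1, Celf1 and Nova2 were at 0.03, 0.08 and 0.08, and with the blood covariate alone Celf1 and Nova2 were each at 0.06.

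The 37 Rbm rows held 3 higher and 5 lower, with a median log2FC of 0.01. Rbm5 stood at 5688, 6502 and 6610.3 in NC and at 4256, 4865 and 5303 in AS3h, without overlap even though NC 1 lay well below the other NC libraries. Rbm5, which in human cells regulates exons of apoptosis genes such as FAS, fell from a mean of 6389.6 ± 349 to 4830.5 ± 352 (SD, n = 6 each; log2FC -0.40 ± 0.056, adjusted p = 0.000576). Rbm22 stood at 849, 1012 and 1124 in NC and at 1221, 1306 and 1399 in AS3h. For Rbm22, which contacts the catalytic RNA core of the spliceosome, the order was the opposite, with all AS3h libraries above all of NC (log2FC 0.40 ± 0.064, adjusted p = 0.00184). Rbm20 stood at 98.7, 126 and 199 in NC and at 44.5, 57.6 and 99.0 in AS3h. In Rbm20, best known for regulating titin exons in the heart, 5 AS3h libraries lay below all of NC and AS3h 5 just inside its range; it fell (log2FC -1.12 ± 0.21, adjusted p = 0.00443), with means of 135 ± 38.1 in NC and 61.6 ± 19.5 in AS3h (SD, n = 6 each).

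The remaining 5 called Rbm genes rested on less separated libraries. Rbm17 stood at 1446, 1484 and 1650.2 in NC and at 1605, 1726 and 1782 in AS3h. Rbm17, which takes part in 3′ splice site recognition, rose (log2FC 0.18 ± 0.049, adjusted p = 0.0293), with 5 AS3h libraries above all of NC. Rbm38 stood at 87.4, 167 and 227 in NC and at 199, 249.997 and 326 in AS3h. Rbm38, a p53 target that controls mRNA stability, rose (log2FC 0.66 ± 0.19, adjusted p = 0.0457), with 4 AS3h libraries above all of NC. Rbm10 stood at 2044, 2224 and 2518 in NC and at 1663, 1859 and 2096 in AS3h. Rbm10, a paralog of Rbm5, fell (log2FC -0.27 ± 0.074, adjusted p = 0.0326), with 4 AS3h libraries below all of NC. Rbm26 stood at 1879, 2339 and 2437 in NC and at 1539.7, 1767 and 2107 in AS3h. Rbm26, which in human cells helps to direct nuclear RNA to the exosome, fell (log2FC -0.30 ± 0.087, adjusted p = 0.0443), likewise with 4 below. Rbm4b stood at 512, 591 and 694 in NC and at 443, 503 and 531 in AS3h. Rbm4b, a regulator of alternative splicing, fell (log2FC -0.27 ± 0.080, adjusted p = 0.0482) with 3 below. It has the close paralog Rbm4 and its locus overlaps Rbm14 on the opposite strand, so that its reads are uncertain. Both had negative log2FC values too and did not pass: Rbm4 at -0.18 ± 0.083 (adjusted p = 0.187) and Rbm14 at -0.29 ± 0.115 (adjusted p = 0.129). Rbm17 passed in 3 of the 12 fits that left out 1 library, those without NC 6, AS3h 2 and AS3h 4, with an adjusted p of up to 0.0646 in the others. Rbm38 passed in 2 of the 12 fits that left out 1 library, those without NC 3 and AS3h 5, with an adjusted p of up to 0.0874 in the others. Rbm10 passed in 5 of the 12 fits that left out 1 library, those without NC 1, NC 4, AS3h 4, AS3h 5 and AS3h 6, with an adjusted p of up to 0.0676 in the others. Rbm26 passed in 4 of the 12 fits that left out 1 library, those without NC 3, NC 6, AS3h 2 and AS3h 3, with an adjusted p of up to 0.104 in the others. Rbm4b passed in 2 of the 12 fits that left out 1 library, those without NC 5 and AS3h 3, with an adjusted p of up to 0.109 in the others.

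**Figure D2:**
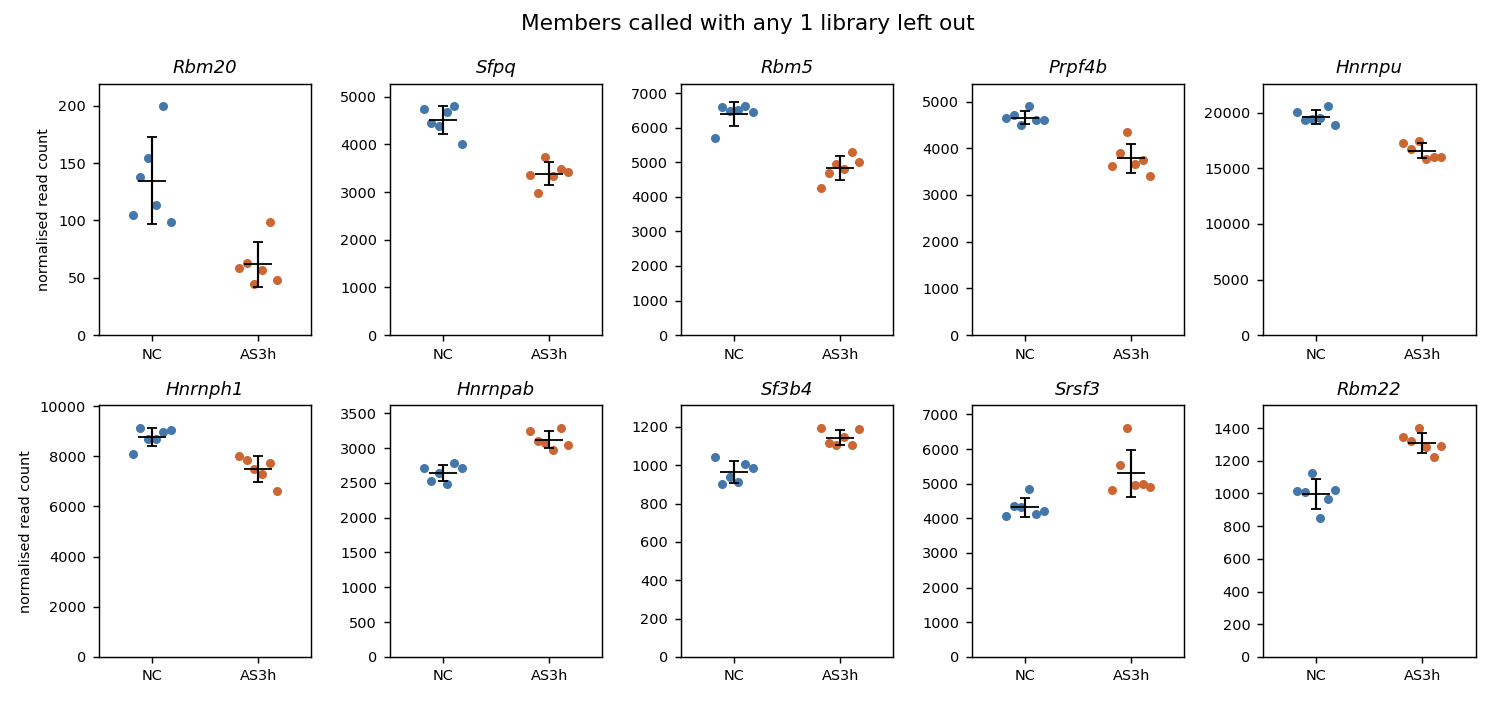
Normalised read count (linear axis from 0) of the 10 genes that passed whichever library was left out. Points are the 6 libraries of each group, and the horizontal line and bar are the mean and SD. In 8 panels the groups do not overlap; in Rbm20 1 AS3h library and in Srsf3 1 NC library lie within the other group's range.

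The 10 genes of the plot of counts by group, 4 higher (Rbm22, Hnrnpab, Sf3b4, Srsf3) and 6 lower (Rbm5, Sfpq, Hnrnpu, Prpf4b, Rbm20, Hnrnph1), passed in all 20 other fits without marker covariates. The other 9 were lost in some of them. With no filter Celf2, Prpf8, Rbm26, Rbm38 and Rbm4b did not pass (adjusted p up to 0.0633), with total-read factors Rbm26 and Rbm4b (0.0536 and 0.0601), and with limma-voom Rbm38 (0.0515). Without AS3h 4 and AS3h 5, which had the highest choroid plexus means, 11 of the 19 passed: those 10 and Rbm10, the other 8 reaching an adjusted p of 0.0747 (Rbm38) to 0.177 (Celf2). Blood marker levels moved with the groups. With both marker means, of blood and of choroid plexus, as covariates, none of the 19 passed in limma (adjusted p = 0.0553 for Rbm5 to 0.584). In that limma fit 23 of the 105 and 2884 of all 19050 genes had an unadjusted p under 0.05. At an adjusted p under 0.05, 58 genes of all those tested passed. The 19 log2 fold changes kept their sign, at 0.518 to 1.55 times their values without covariates (median 1.09). With blood alone 6 of the 19 passed, Rbm5, Sfpq, Rbm22, Hnrnpu, Hnrnpab and Hnrnpc, and with choroid plexus alone 10 did. Those 10 held Prpf8 (adjusted p = 0.0426) and not Srsf3 (0.0574), and otherwise the genes of the plot of counts by group. What part blood or choroid plexus RNA had in these differences was otherwise not tested.

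**Figure D3:**
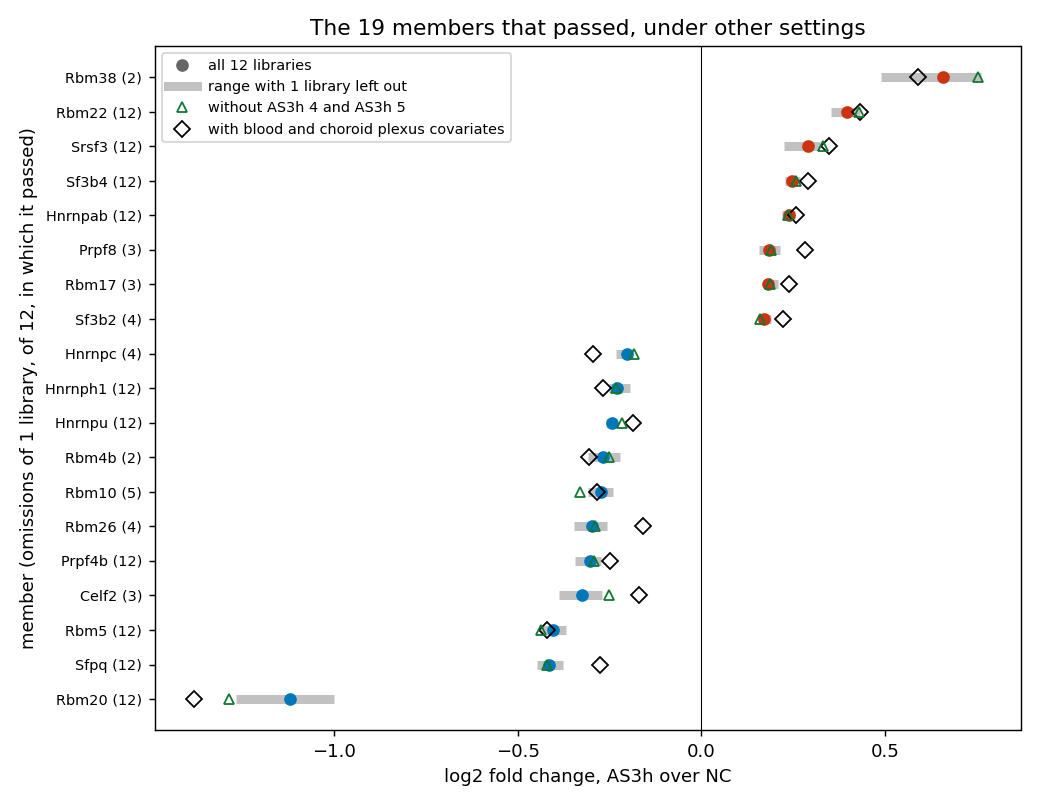
Log2 fold change, AS3h over NC, of the 19 genes that passed, with all 12 libraries (filled points, red higher and blue lower), as the range over the omissions of 1 library (grey bars), without AS3h 4 and AS3h 5 (triangles) and with both marker covariates (diamonds). The number beside each name is the number of the 12 omissions in which the gene passed. No marker crosses 0, and the diamonds lie between 0.518 and 1.55 times the filled points.

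Ratios of Sfpq, Rbm5 and Srsf3 to some close relatives lay apart between the groups, but not that of Rbm5 to Rbm10. For 9 pairs, chosen after the values were seen, the log2 ratio of both genes within a library was taken. The first gene of every pair was already called, so a separation largely restates that call and is no further support for it. Only the difference of each ratio between groups is read, and it is given without a test. No share for gene pairs in general was computed. Sfpq over Nono was at -0.21 to 0.09 in NC and -0.67 to -0.28 in AS3h, a difference of -0.44 with no overlap. Sfpq over Pspc1 was at 1.25 to 1.41 in NC and 0.68 to 1.01 in AS3h, a difference of -0.47, also without overlap. Both ratios fell with Sfpq. Rbm5 over its neighbour and paralog Rbm6 was at 1.66 to 1.78 in NC and 1.42 to 1.49 in AS3h, a difference of -0.26, and had the smallest SD of the 9 in both groups. The loci overlap on the same strand, and Rbm6 itself did not pass (log2FC -0.15 ± 0.056, adjusted p = 0.114). Srsf3 over Srsf7, both of them also mRNA export adaptors, was at 0.78 to 1.02 in NC and 1.12 to 1.58 in AS3h, a difference of 0.32, again without overlap. The other 5 pairs overlapped between the groups. Their differences were -0.13 for Rbm5 over Rbm10, -0.23 for Hnrnpu over Hnrnpul2, -0.25 for Hnrnph1 over Hnrnph2, 0.11 for Hnrnpab over Hnrnpd and 0.25 for Sf3b4 over Sf3b1.

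**Figure D4:**
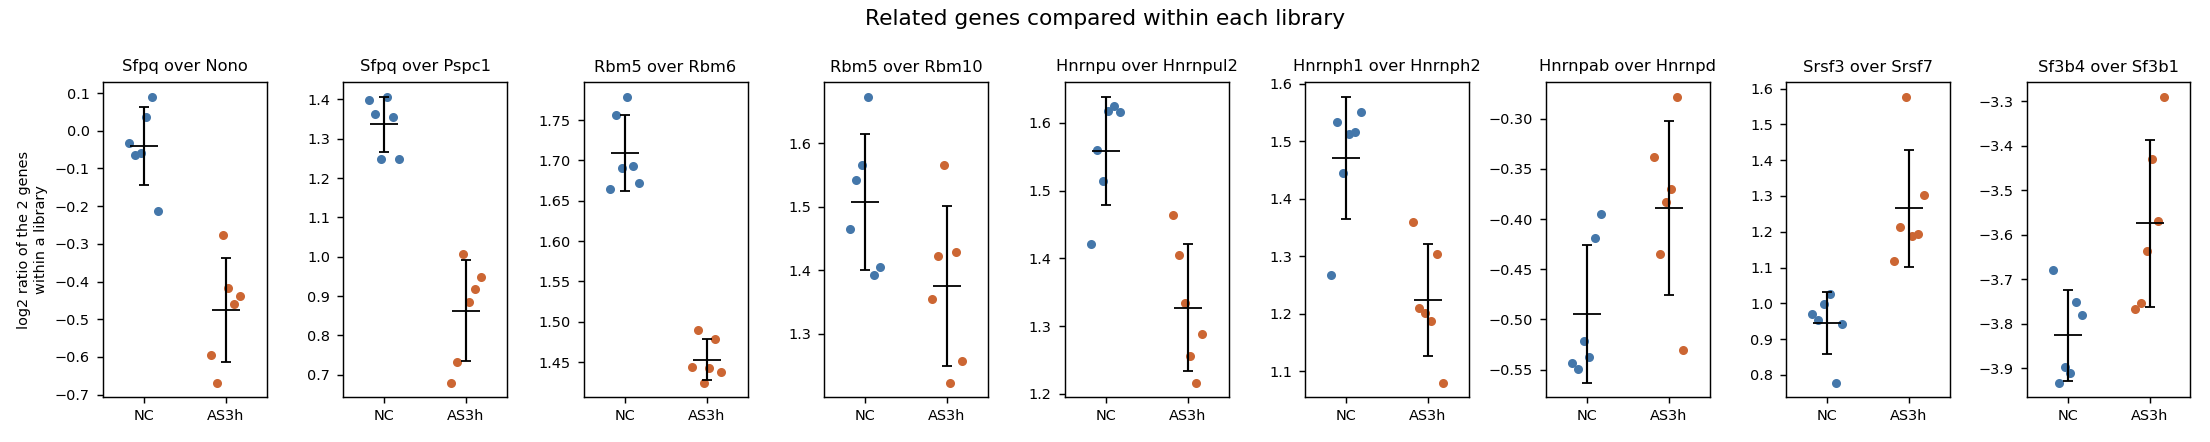
Log2 ratio of the normalised read counts of related genes within each library (vertical axes differ and do not start at 0). Points are the 6 libraries of each group, with mean and SD. Groups are apart in 4 of the 9 panels: Sfpq over Nono, Sfpq over Pspc1, Rbm5 over Rbm6 and Srsf3 over Srsf7.

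Other genes of the same machinery also went both ways. Their lists were chosen with earlier results of these data known, so the shares called in them are not independent support. In lists of the core and minor spliceosome, exon junction complex, other splicing regulators and SR protein kinases, 117 rows were tested: 9 were higher, 15 lower and 93 did not pass. That is 20.5% called, 7.69% higher and 12.8% lower, against 9.26%, 5.04% and 4.22% of all genes tested, shares that apply to each list below. Many of these rows had a mean normalised count of at least 1000. Among all genes at that level the shares were 14.0%, 8.19% and 5.77%. The share of the list rows at that level was not computed, and other list rows lay below it. How far the excess follows from read count was therefore not tested. All shares given here are those of the main fit, in which 1764 of all 19050 genes passed in either direction. In other fits the calls fell both in the lists and among all genes. Omitting AS3h 4 together with AS3h 5 left 3 higher and 6 lower in the lists, and 860 of all genes. Blood as the only covariate left 2 and 5, and 499 of all genes. Choroid plexus as the only covariate left 4 and 11, and 1185 of all genes. Both covariates left 0 and 2, and 58 of all genes. With 1 library left out the counts of the lists ranged from 4 to 9 and from 10 to 15, lowest without NC 2 (4 and 10). In the lists 4 were higher also without NC 4, AS3h 4, AS3h 5 or AS3h 6, and 5 without NC 3.

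Among 57 core spliceosome rows, 5 were higher and 4 lower (median log2FC 0.03). Luc7l3 stood at 10349, 11238 and 12331 in NC and at 7042, 7664 and 8650.2 in AS3h. Luc7l3, a homolog of a yeast U1 particle protein, had every AS3h library below all of NC and fell (log2FC -0.54 ± 0.059, adjusted p = 0.00013). U2surp, a U2-associated factor, fell (log2FC -0.31 ± 0.068, adjusted p = 0.011), while Snrpb, a component of the common Sm ring (log2FC 0.29 ± 0.057, adjusted p = 0.00637), and Sart1, a tri-snRNP factor (log2FC 0.25 ± 0.050, adjusted p = 0.00669), rose. Of 8 genes of the minor spliceosome, which removes a rare class of introns, 2 fell and 0 rose. Snrnp48 stood at 599.6, 696 and 738 in NC and at 399, 464 and 487 in AS3h, and the groups did not overlap. Snrnp48, a protein of the U11/U12 particle, fell (log2FC -0.60 ± 0.074, adjusted p = 0.000289), as did Rnpc3 of the same particle (log2FC -0.41 ± 0.11, adjusted p = 0.0333).

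The exon junction complex, which is left on spliced mRNA, had 2 of 8 higher and 0 lower: its core helicase Eif4a3 (log2FC 0.23 ± 0.050, adjusted p = 0.0113) and Rnps1 (log2FC 0.15 ± 0.042, adjusted p = 0.0323). Of 36 other splicing regulators, 8 were lower and 1 higher with a median log2FC of -0.06. These counts became 2 lower and 0 higher without AS3h 4 and AS3h 5, and 3 lower and 0 higher with the blood covariate alone. The 4 with the smallest p all fell: Tia1, a uridine-rich RNA binder (log2FC -0.53 ± 0.073, adjusted p = 0.000581), Tra2a, the paralog of Tra2b (log2FC -0.47 ± 0.067, adjusted p = 0.000726), Fubp1 (log2FC -0.36 ± 0.079, adjusted p = 0.0104) and Tardbp, which encodes TDP-43 (log2FC -0.33 ± 0.072, adjusted p = 0.0106). Of 8 SR protein kinases, Clk1 stood at 4944, 5945 and 6703 in NC and at 2279, 3964 and 4448 in AS3h. Clk1, which phosphorylates SR proteins, fell (log2FC -0.70 ± 0.14, adjusted p = 0.00926) and Dyrk1a rose (log2FC 0.20 ± 0.060, adjusted p = 0.0482). Luc7l3 and Snrnp48 passed in every alternative. Rnps1 passed in 4 of the 12 omissions of 1 library, those of NC 1, NC 5, AS3h 2 and AS3h 3, with an adjusted p of up to 0.0718 in the others. Rnpc3 passed in 5 of the 12 omissions of 1 library, those of NC 5, NC 6, AS3h 1, AS3h 2 and AS3h 3, with an adjusted p of up to 0.0824 in the others. Dyrk1a passed in 3 of the 12 omissions of 1 library, those of NC 5, AS3h 1 and AS3h 2, with an adjusted p of up to 0.0986 in the others. Without both AS3h 4 and AS3h 5 these 3 did not pass (adjusted p = 0.118, 0.091 and 0.164), nor did Fubp1, Tardbp and U2surp (0.053, 0.062 and 0.058). With the blood covariate alone Clk1 (adjusted p = 0.124), Snrpb (0.0856), Eif4a3 (0.138), Fubp1 (0.155), Tardbp (0.124), U2surp (0.132), Rnps1 (0.162) and Rnpc3 (0.273) did not pass, and with that of choroid plexus alone Rnps1 (0.0645) and Dyrk1a (0.121) did not. Dyrk1a also lost its call with no filter (0.0626) and with total-read factors (0.0536). With both covariates Luc7l3 and Snrnp48 were the 2 rows of the lists that passed.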

How the data were processed

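RNA was extracted with a HiPure kit, and 1.3 µg per sample went into strand-specific VAHTS Universal V10 libraries, per the labels' protocols. FastQC 0.11.5, STAR and the build mRatBN7.2 are named in the submitters' processing notes. Not given in the sources used here are the counter, its strand setting and the annotation, so genes that overlap or have near-identical copies may share reads. The authors deposited log2 values, 1 file per sample. From the values, each equals log2(reads / library factor + 1); whole reads came back in 100% of them within 0.02 read, and the factors ranged from 0.92 to 1.16. How the factors were derived is not given.

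The design had foreseen either counts or log2 values, and the log2 branch was used. Genes at 1 or more in at least 6 libraries (19050) were fitted with limma 3.58.1 in R 4.3.3 (robust empirical Bayes, trend on mean level, group only), and p-values were adjusted by Benjamini-Hochberg over all of them at 0.05. The fit was tested on simulated data. Library measures were compared by exact permutation tests over 924 splits. Fold changes understate those of low genes, and floors cover counting error only. The genes and lists were chosen with earlier results of these data known. Named were all called splicing genes, the 2 of smallest p in classes with fewer than 2 calls, the highest-count gene of each class, and up to 4 called genes per pathway list. Symbols without a row were not analysed here. Alternatives were limma-voom on recovered reads, other filters, a pseudocount of 0.1, other factors, a replicate block, omissions of libraries and marker covariates; the single covariates were added after seeing the data. No replicate libraries agreed within sampling noise (lowest chi-square over degrees of freedom 11.4). RefSeq tables of GRCr8 gave promoters, spans and overlaps, by symbol. Figures used matplotlib 3.10.9.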

Additional observations from a re-analysis of the deposited data

Results flagged for a closer look

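In 5 of the 50 groups of 6 libraries examined (25 named genes, both groups), the highest or lowest library stood apart from the others by Dixon's criterion, which chance meets in about 1 of 20 groups. NC 1 had the lowest Rbm5 normalised count, 5688, against 6451 to 6610 in the other NC libraries. AS3h 5, which also had the highest choroid plexus level, had the highest Rbm20 count of its group, 99.0, against 44.5 to 62.7. NC 4 had the highest Srsf3 count of NC, 4838, against 4063 to 4350.3. NC 1 also had the highest Mbnl2 count of NC, 8413, against 7506 to 7696. AS3h 1 had a Pspc1 count of 2093, against 1768 to 1862 in the other AS3h libraries. Rbm5, Rbm20 and Srsf3 passed without these libraries.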

How the results depend on the processing

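The 8 higher and 11 lower splicing genes became 4 to 8 and 6 to 11 when 1 library was left out, and the 960 and 804 of all genes 585 to 980 and 445 to 822. Of the splicing genes 4 were higher without NC 2, NC 4 or AS3h 1 and 5 without NC 3, NC 6, AS3h 4, AS3h 5 or AS3h 6; 6 were lower without NC 2 and 7 without NC 3, NC 4, AS3h 4, AS3h 5 or AS3h 6. Without AS3h 4 and AS3h 5 they were 4 and 7, and 454 and 406 of all genes. With blood and choroid plexus covariates they were 0 and 0, and 25 and 33 of all genes, and with blood alone 2 and 4, and 280 and 219 of all genes. With choroid plexus alone 4 were higher, and 623 of all genes, while 1185 of all genes passed in either direction. There Rbm5, Sfpq, Hnrnpu, Prpf4b, Rbm20 and Hnrnph1 stayed lower. Rbm12b and Rbm41 were lower and passed as well (adjusted p = 0.0482 and 0.049), which they did not in the main fit. The cause of these losses was not tested. The replicate block gave 6 and 8, and 691 and 605 of all genes, without Rbm17, Hnrnpc, Prpf8, Rbm26, Rbm38 and Rbm4b (adjusted p = 0.072 to 0.0948). Rbm18 was higher and passed with the block (adjusted p = 0.0495), which it did not in the main fit (0.0631). The block gave 3 and 13 of the 117 pathway rows, against 9 and 15 without it. Of the pathway genes named above, Rnps1 and Dyrk1a were among those lost (adjusted p = 0.0798 and 0.075). Libraries with the same number did not deviate together (correlation -0.015 to 0.027), so the numbers were not read as pairs. Of the 25 genes named by the rule only Sf3b1, at -0.00484, changed sign, with a range of -0.056 to 0.040 over the omissions of 1 library: 0.0014 without NC 3, 0.023 without AS3h 4, 0.0055 without AS3h 5, 0.040 without AS3h 6, 0.043 without both AS3h 4 and AS3h 5 and 0.016 with choroid plexus alone. Of other genes mentioned, Rbm44 (0.60) was at -0.21 with both covariates, Rbm47 (-0.25) at 0.18 with blood alone and up to 0.013 with 1 library left out, and Hnrnpul2 (-0.01) at 0.05 with both, 0.04 with blood alone and up to 0.02 with 1 library left out. Limma-voom, other filters, the pseudocount and other factors kept these 4 counts within 1.5 times. Depth limits Rbm44, Rbm46 and Rbm47, whose standard errors were the widest.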

Other observations

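The 11 genes that fell had a larger median genomic span than the 8 that rose, but the ranges overlapped. On GRCr8 the median span was 29.7 kb for the 11 lower genes (8.79 to 825 kb), 11.8 kb for the 8 higher ones (4.75 to 40.9 kb) and 20.05 kb for the 86 that did not pass. Over all genes tested, 76.4% had a span, under the 80% needed, so a comparison with them is void. These are values only, noticed after the calls were known and given without a test.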
